A study of Mus musculus with 62 samples.

Results

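Gfi1 and Gfi1b are paralogous genes for zinc-finger transcriptional repressors, and the chromatin of both loci was followed here after loss of Daxx, a chaperone of the histone variant H3.3, with or without loss of Pu.1. A locus was the gene with 50 kb on each side, in the mm10 genome and the GENCODE M21 annotation. Gfi1 (ENSMUSG00000029275.18) lies at chr5:107716657-107726036 on the minus strand, which gave a window of 109 kb. Gfi1b (ENSMUSG00000026815.14) lies at chr2:28609450-28621982 on the minus strand, which gave a window of 113 kb. The members were all sites that overlapped a window by at least 1 bp in the 14 deposited tables of differing sites, namely 118 sites at Gfi1 and 145 at Gfi1b, 263 of 1743368 listed sites in all. A table lists only sites that differed between its 2 groups, so every member was chosen by the measured counts of its own contrast, and the values below are a description with no test. A position missing from a table is not a measured equality.

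The data came from CUT&Tag, in which a transposase tethered to an antibody cuts and tags the DNA under a protein or histone mark, on primary mouse HSPCs. The series held 62 libraries, of which 54 were in the tables used and 8 DKO libraries of 24 weeks post induction (w.p.i.) were in none. All animals were C57BL/6 mice carrying 1 copy of Cre, which was driven by the interferon-inducible Mx1 promoter and switched on by pI:pC injection, so the controls had received both. WT mice were Daxx +/+ Cre +/-, Daxx-KO mice were Daxx F/F Cre +/- (exons 2 to 7 flanked by loxP), and DKO mice carried Pu.1 F/F in addition to Daxx F/F and Cre +/-. The labels give neither age nor sex, and the Daxx allele was made in the N substrain and crossed to the J substrain. H3.3, Pu.1, H3K27ac and H3K9me3 were compared between Daxx-KO and WT at 3 w.p.i. with 2 libraries a group, and the same antibodies and H3K27me3 at 24 w.p.i. with 2 a group. H3K9me3 was compared between the same genotypes at 8 w.p.i. with 3 a group. DKO was compared with WT and with Daxx-KO at 8 w.p.i. for H3K9me3 and H3K27me3 with 3 libraries a group, and these 2 comparisons share the DKO libraries. Replicates came from different mice (no mouse number is given for WT replicate 1 of H3.3 and Pu.1 at 3 w.p.i.), while antibodies shared mice, so the marks are not independent samples. At 24 w.p.i. all antibodies came from the same mice, as did both marks at 8 w.p.i. At 3 w.p.i. H3.3 and Pu.1 shared one set of mice and H3K27ac and H3K9me3 another, with 1 WT mouse in both sets.

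The cells were taken from bone marrow by magnetic sorting for c-Kit after removal of lineage-positive cells, a mixture of stem cells and committed progenitors. Their identity could not be read from the tables, which hold no undisturbed positions. Within such a mixture, fewer cells of a type and less signal per cell cannot be told apart.

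Both proteins carry a SNAG domain, through which they recruit the histone demethylase Lsd1 (gene Kdm1a), CoREST (Rcor1) and histone deacetylases, and both bind DNA at an AATC core. Gfi1 restrains stem cell division and is needed for neutrophil and lymphoid differentiation, whereas Gfi1b is needed for erythroid and megakaryocytic differentiation and is also present in stem cells. The 2 factors repress each other and themselves. Distal elements that drive Gfi1 have been described upstream of it, over the neighbouring gene Evi5, and those that drive Gfi1b downstream of it. H3K27ac marks active promoters and enhancers, H3K27me3 marks Polycomb-repressed chromatin, and H3K9me3 marks heterochromatin. Pu.1, encoded by Spi1, is an Ets factor of myeloid and lymphoid cells that binds purine-rich DNA around GAGGAA.

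The sequences below show what lay under sites at which Pu.1 was listed, all of them higher in Daxx-KO. Each is the central 300 bp of a member site, from the mm10 genome on the plus strand, with the word GAGGAAG on either strand in capitals (its reverse complement reads CTTCCTC). They are shown because they hold this word. A further Pu.1 site with the word, over Cel in the window of Gfi1b, is not printed and was lower at 24 w.p.i., with 0 and 0 normalised counts in Daxx-KO against 38.9 and 96.8 in WT (chr2:28560301-28561050).
Gfi1, 8.91 kb upstream, higher in Daxx-KO at 24 w.p.i. (chr5:107734801-107735100): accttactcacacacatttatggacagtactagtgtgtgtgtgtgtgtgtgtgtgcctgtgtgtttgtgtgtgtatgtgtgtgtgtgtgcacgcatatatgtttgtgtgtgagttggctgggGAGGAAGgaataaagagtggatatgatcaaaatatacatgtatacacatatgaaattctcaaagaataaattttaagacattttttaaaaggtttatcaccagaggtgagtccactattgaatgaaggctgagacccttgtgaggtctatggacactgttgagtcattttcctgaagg
Gfi1, 2.06 kb upstream, higher in Daxx-KO at 24 w.p.i. (chr5:107727951-107728250): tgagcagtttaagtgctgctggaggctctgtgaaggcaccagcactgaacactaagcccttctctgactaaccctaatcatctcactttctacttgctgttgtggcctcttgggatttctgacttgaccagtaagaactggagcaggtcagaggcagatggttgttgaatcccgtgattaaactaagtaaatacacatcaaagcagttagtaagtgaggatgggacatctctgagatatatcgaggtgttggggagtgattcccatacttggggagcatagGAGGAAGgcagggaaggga
Gfi1b, 14.2 kb downstream of the start, higher in Daxx-KO at 3 w.p.i. (chr2:28607651-28607950): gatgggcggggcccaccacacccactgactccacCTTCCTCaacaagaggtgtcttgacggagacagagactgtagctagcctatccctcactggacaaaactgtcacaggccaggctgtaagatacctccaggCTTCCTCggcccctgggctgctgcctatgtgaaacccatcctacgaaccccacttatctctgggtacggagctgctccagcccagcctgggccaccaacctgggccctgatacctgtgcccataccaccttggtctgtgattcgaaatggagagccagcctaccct
Gfi1b, first part of the gene, 3.56 kb downstream of the start, higher in Daxx-KO at 3 w.p.i. (chr2:28618276-28618575): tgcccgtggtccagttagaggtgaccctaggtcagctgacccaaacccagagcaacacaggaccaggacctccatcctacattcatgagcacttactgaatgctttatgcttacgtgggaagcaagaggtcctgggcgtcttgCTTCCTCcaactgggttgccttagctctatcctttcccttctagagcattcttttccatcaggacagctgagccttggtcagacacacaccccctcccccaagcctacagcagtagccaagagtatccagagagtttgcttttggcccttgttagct
The word was held by 5 of 20 Pu.1 sites at Gfi1 and by 3 of 40 at Gfi1b. At 24 w.p.i. it was under 4 of 13 Pu.1 sites at Gfi1 (30.8%) and under 1 of 21 at Gfi1b (4.76%), against 10.8% of all 253825 Pu.1 sites of that table. At 3 w.p.i. it was under 1 of 7 at Gfi1 (14.3%) and 2 of 19 at Gfi1b (10.5%), against 11.3% of all.

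The promoters of the 2 genes are shown because both overlapped, at least in part, member sites of several antibodies. They are the RefSeq promoters of GRCm38.p6, 250 bases before to 50 after the start RefSeq uses, which for Gfi1 is the annotated start 0.231 kb into the gene, on the minus strand, and the capitals mark AATC and GATAA on either strand (GATT and TTATC as reverse complements).
Gfi1 promoter (chr5:107725756-107726055): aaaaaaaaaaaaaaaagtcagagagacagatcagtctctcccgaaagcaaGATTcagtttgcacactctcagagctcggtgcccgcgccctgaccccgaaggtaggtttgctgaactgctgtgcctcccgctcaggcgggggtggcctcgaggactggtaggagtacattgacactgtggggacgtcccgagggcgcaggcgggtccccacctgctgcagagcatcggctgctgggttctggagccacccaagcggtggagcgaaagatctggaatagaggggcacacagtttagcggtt
Gfi1b promoter (chr2:28621933-28622232): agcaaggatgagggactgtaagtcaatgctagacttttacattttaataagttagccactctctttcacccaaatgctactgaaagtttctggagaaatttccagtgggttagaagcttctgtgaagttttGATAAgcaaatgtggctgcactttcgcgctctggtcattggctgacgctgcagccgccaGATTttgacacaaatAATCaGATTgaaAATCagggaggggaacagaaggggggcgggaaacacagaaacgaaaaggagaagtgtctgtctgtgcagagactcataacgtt
AATC, the core that Gfi1 and Gfi1b themselves bind, occurred once at Gfi1 and 4 times at Gfi1b, and 73.1% of 32851 RefSeq promoters held it. GATAA, the core of the Gata factors, occurred once at Gfi1b and not at Gfi1, and 25.4% of promoters held it. Both words were chosen after the longer words had been searched. None of the longer words searched, which are those of Pu.1 above and of Gfi1, Gata and Runx factors below, was in either promoter.

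Mean reads per 600-bp window were 1.21 to 33.78 in the libraries at 3 w.p.i., 0.2 to 3.29 at 8 w.p.i. and 3.97 to 10.3 at 24 w.p.i. For H3.3 and Pu.1 at 3 w.p.i., WT replicate 1 was the deepest library (22.88 and 33.78 reads per window) and WT replicate 2 the shallowest (3.06 and 2.75), so that 1 read of the latter counted as 2.62 and 3.20 normalised counts. The DKO libraries of H3K9me3 at 8 w.p.i. correlated weakly with each other over the listed sites (Spearman's rho 0.0784 to 0.338, and 0.784 to 0.799 for WT), but no member came from them. Over the floxed exons of Daxx, 3 tables listed a site and each was lower in Daxx-KO. H3K27ac there was 113 and 93.7 normalised counts for Daxx-KO against 858 and 368 for WT at 24 w.p.i. No DKO comparison listed a site over Spi1, which leaves the deletion of Spi1 unchecked here.

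**Figure D1:**
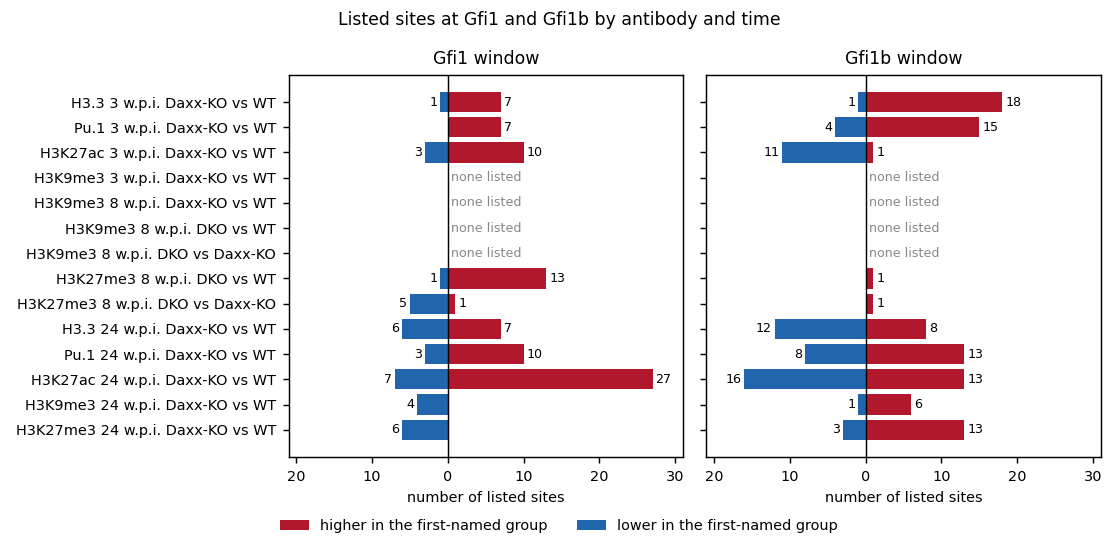
Number of listed sites in the Gfi1 window (left) and the Gfi1b window (right) for each of the 14 comparisons. Bars to the right (red) are sites higher in the first-named group and bars to the left (blue) sites lower in it. H3K27ac at 24 w.p.i. had 27 higher sites at Gfi1, and 4 H3K9me3 comparisons listed none.

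The 2 loci differed in the direction of several marks. At Gfi1, 82 sites were higher and 36 lower in the first-named group of their comparison, and at Gfi1b 89 were higher and 56 lower. At Gfi1 H3K27ac was mostly higher in Daxx-KO and H3K27me3 lower at 24 w.p.i. At Gfi1b H3K27me3 was mostly higher at 24 w.p.i. and H3K27ac mostly lower at 3 w.p.i. H3.3 and Pu.1 were mostly higher at both loci at 3 w.p.i.

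Beside these counts stand the shares of all sites of each table that were higher in the first-named group. H3.3 at 3 w.p.i. was higher at 7 and lower at 1 site of Gfi1, and higher at 18 and lower at 1 of Gfi1b (59.4% of all sites of that table were higher and 40.6% lower). Pu.1 at 3 w.p.i. was higher at 7 sites of Gfi1, with none lower, and at 15 of Gfi1b with 4 lower (56.0% higher, 44.0% lower). H3K27ac at 3 w.p.i. was higher at 10 and lower at 3 sites of Gfi1 but higher at 1 and lower at 11 of Gfi1b (41.5% higher, 58.5% lower). All 3 antibodies were therefore mostly higher at Gfi1 by this time, and H3K27ac alone was mostly lower at Gfi1b. At 24 w.p.i., H3.3 was higher at 7 and lower at 6 sites of Gfi1 and higher at 8 and lower at 12 of Gfi1b (52.6% higher, 47.4% lower). Pu.1 was higher at 10 and lower at 3 of Gfi1 and higher at 13 and lower at 8 of Gfi1b (48.2% higher, 51.8% lower). H3K27ac was higher at 27 and lower at 7 of Gfi1 and higher at 13 and lower at 16 of Gfi1b (42.5% higher, 57.5% lower). H3K27ac was thus mostly higher at Gfi1 at both times. Of the 14 late H3K27ac sites whose nearest start was that of Gfi1b, 3 were higher and 11 lower. H3K27me3 at 24 w.p.i. was lower at all 6 sites of Gfi1, and higher at 13 and lower at 3 of Gfi1b (41.2% higher, 58.8% lower). H3K9me3 at 24 w.p.i. was lower at all 4 sites of Gfi1, and higher at 6 and lower at 1 of Gfi1b (48.1% higher, 51.9% lower).

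The mark of heterochromatin was absent from the lists before 24 w.p.i. H3K9me3 listed no site at either locus at 3 w.p.i. or in the 3 comparisons of 8 w.p.i. (78.9%, 65.2%, 81.4% and 73.4% of all sites of those tables were higher in the first-named group and 21.1%, 34.8%, 18.6% and 26.6% lower). Over protein-coding genes with the same flanks, the median of higher H3K9me3 sites in those tables was also 0. H3K27me3 in DKO against WT at 8 w.p.i. was higher at 13 and lower at 1 site of Gfi1 and higher at 1 of Gfi1b (56.1% of all sites higher, 43.9% lower). H3K27me3 in DKO against Daxx-KO was higher at 1 and lower at 5 sites of Gfi1 and higher at 1 of Gfi1b (65.3% higher, 34.7% lower).

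Groups did not overlap at 105 of the 118 sites of Gfi1 and at 144 of the 145 of Gfi1b. Of all sites, the groups did not overlap at 98.4% for H3.3, 98.1% for Pu.1 and 97.6% for H3K27ac at 3 w.p.i., because a site enters a table for its difference. At 24 w.p.i. this share was 98.3% for H3.3, 98.2% for Pu.1, 97.3% for H3K27ac, 97.2% for H3K9me3 and 97.6% for H3K27me3. In DKO against WT the groups did not overlap at 5 of the 14 H3K27me3 sites of Gfi1 (89.6% of all sites), and in DKO against Daxx-KO at 4 of 6 (84.3%). With 2 libraries a group the smallest exact p is 0.333 and with 3 it is 0.100, above any usual threshold.

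As a further description, each locus was set beside all 21755 protein-coding genes with the same 50 kb flanks. At least 27 higher H3K27ac sites at 24 w.p.i., the number of Gfi1, were at 3.69% of genes (median 7). At least 10 at 3 w.p.i. were at 5.51% of genes (median 2), and at least 13 higher H3K27me3 sites in DKO against WT were at 4.82% (median 1). For Gfi1b, at least 13 higher H3K27me3 sites at 24 w.p.i. were at 10.2% of genes (median 2), at least 11 lower H3K27ac sites at 3 w.p.i. at 15.4%, and at least 18 higher H3.3 sites at 3 w.p.i. at 15.8%. The 6 lower H3K27me3 sites of Gfi1 were an ordinary number, which 50.99% of genes reached.

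**Figure D2:**
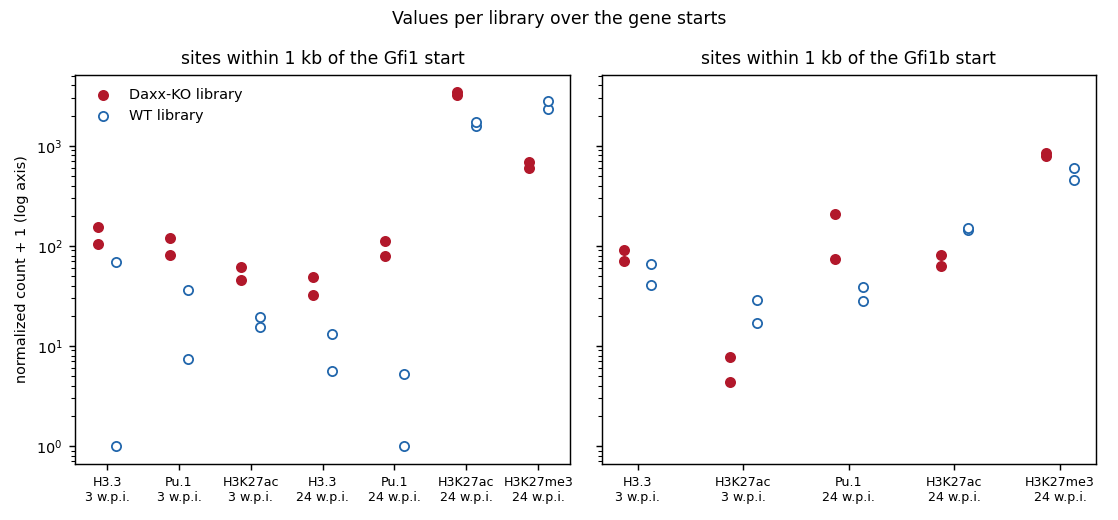
Normalised counts (log axis, 1 added) in each library at sites within 1 kb of the start of Gfi1 (left) and Gfi1b (right), for Daxx-KO (filled red) and WT (open blue). Over the Gfi1 start H3K27ac was higher and H3K27me3 lower in both Daxx-KO libraries at 24 w.p.i., and over the Gfi1b start each mark had the opposite direction.

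The Gfi1 start carried the sites with the largest H3K27ac and H3K27me3 counts of the locus. A count is the total over a site and rises with its length, also where a site is called the strongest below. Both were the longest sites of their comparison at Gfi1 (medians 750 and 1100 bp), so their counts do not show the densest signal. Late H3K27ac, at 24 w.p.i., covered 4.80 kb over the promoter and the 5′ part of the gene (chr5:107722851-107727650) with 3421 and 3205 normalised counts in Daxx-KO against 1571 and 1736 in WT. H3K27me3 covered 7.90 kb from the promoter into the gene (chr5:107719751-107727650) with 597 and 684 normalised counts in Daxx-KO against 2347 and 2784 in WT. The active mark was thus 2.00-fold higher and the Polycomb mark 4.00-fold lower over largely the same DNA, and the libraries of the groups did not overlap for either. On the log2 scale, with 1 added to each mean as in all log2 ratios here, these were 1.00 and -2.00. At 3 w.p.i. the acetylated site at the promoter was shorter (chr5:107726351-107727150), with 60.1 and 44.2 normalised counts in Daxx-KO against 18.3 and 14.3 in WT, 3.20-fold. H3K27me3 was not measured at 3 w.p.i., so the order of the 2 differences is not known.

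H3.3 and Pu.1 were also higher at the Gfi1 promoter at both times. H3.3 at 3 w.p.i. had 155 and 103 normalised counts in Daxx-KO against 67.3 and 0 in WT (log2 ratio 1.91), and at 24 w.p.i. 30.9 and 47.5 against 4.61 and 12.2 (2.10). The value of 0 came from the shallow WT library, and the deeper one alone was still below both Daxx-KO libraries. Pu.1 at 3 w.p.i., just upstream of the start (chr5:107726401-107727300), had 80.3 and 117.5 normalised counts in Daxx-KO against 35.5 and 6.39 in WT (2.19). At 24 w.p.i. Pu.1 over the start itself (chr5:107725651-107726450) had 110.4 and 77.3 normalised counts in Daxx-KO against 0 and 4.21 in WT (4.93). These 2 Pu.1 sites adjoin and share only 50 bp. The Daxx-KO and WT libraries were separate in all 4 of the H3.3 and Pu.1 sites.

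Within the gene the direction of Pu.1 differed from that at the start. At the annotated start 1.69 kb further along the gene, Pu.1 at 24 w.p.i. had 0 and 4.18 normalised counts in Daxx-KO against 30.2 and 46.3 in WT (chr5:107724001-107724600, -3.67). H3K9me3 at 24 w.p.i. was also lower in this part of the gene, with 16.6 and 25.0 normalised counts in Daxx-KO against 124 and 26.2 in WT (chr5:107722601-107723350, -1.81). The second WT library was only just above Daxx-KO, so that this difference rested on the first. Further in the gene, H3.3 at 3 w.p.i. had 110 and 95.1 normalised counts in Daxx-KO against 42.8 and 39.3 in WT (chr5:107721301-107722250). Pu.1 was also higher here at 3 w.p.i., with 113 and 84.3 against 41.8 and 25.6 (1.53). At 24 w.p.i. an overlapping H3.3 site had 81.7 and 110.9 against 34.1 and 0. Late H3K27ac had 625 and 441 normalised counts in Daxx-KO against 256 and 189 in WT over the same part (chr5:107719651-107721800, 1.26). H3.3 and the active mark were thus mostly higher along the gene as at its start. H3K27ac was lower at a short site at 3 w.p.i., with 1.94 and 1.70 against 23.6 and 8.83 (chr5:107719251-107719950, -2.61).

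Near the 3′ end of Gfi1 the marks met in 1 stretch (chr5:107717651-107718550) with sites of 5 comparisons. H3.3 at 3 w.p.i. (42.6 and 42.7 against 16.8 and 0) and H3K27ac at both times were higher, and H3K9me3 and H3K27me3 at 24 w.p.i. lower. H3K27ac there was 226 and 184 normalised counts in Daxx-KO against 95.0 and 72.0 in WT at 24 w.p.i. H3K27me3 was 24.7 and 23.9 in Daxx-KO against 164 and 74.3 in WT (-2.25). A shorter H3K27ac site beside it (chr5:107717151-107717750) was lower, with 46.5 and 46.8 against 77.1 and 100.5.

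**Figure D3:**
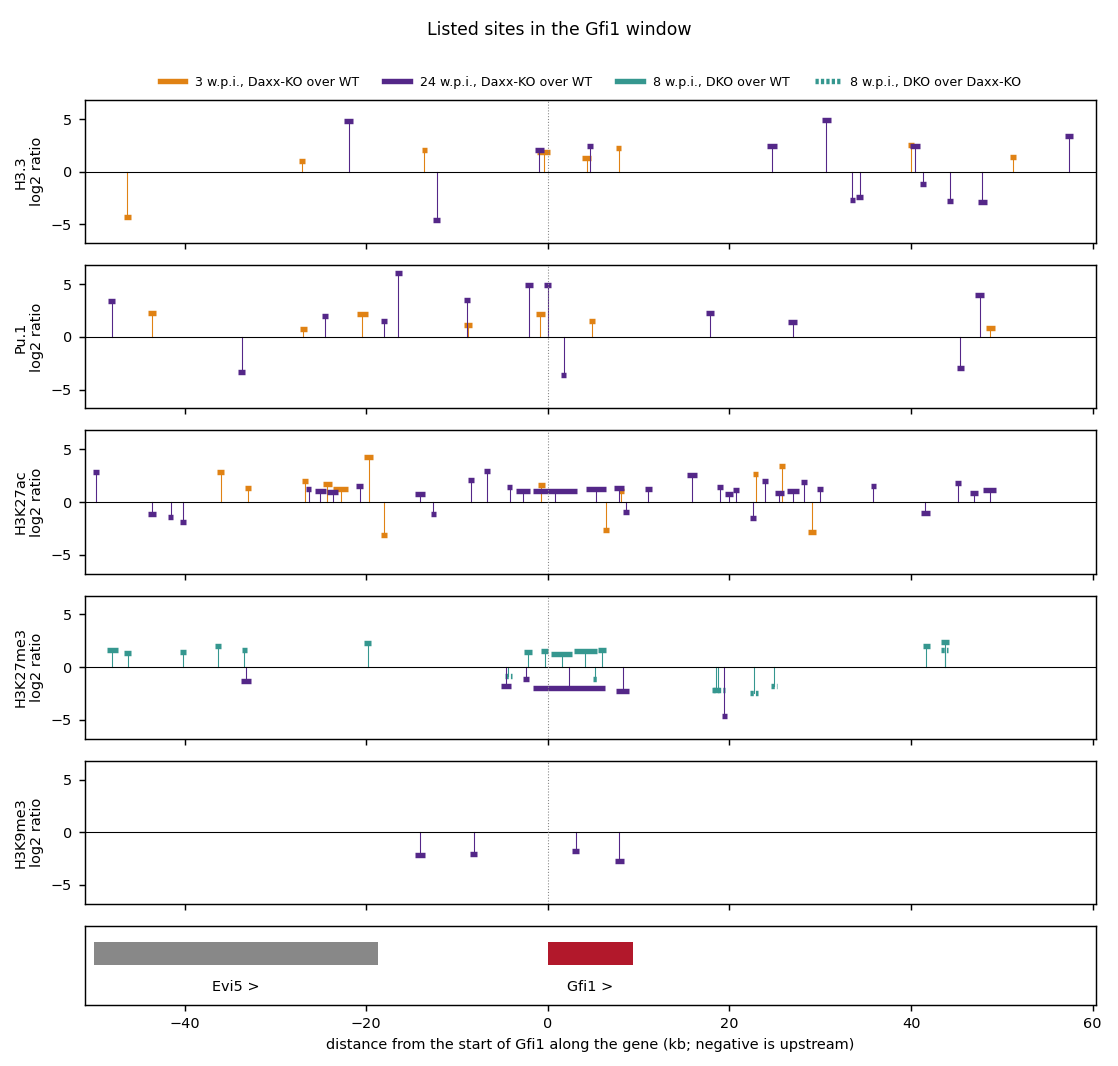
Listed sites along the Gfi1 window by antibody. The x axis is the distance from the gene start in kb along the gene (negative is upstream), the y axis the log2 ratio of the group means, bars span the sites, and colour and line give the time and comparison. H3K27me3 at 24 w.p.i. was lower at every listed site, and DKO against WT at 8 w.p.i. was higher at all but 1.

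Upstream of Gfi1, over Evi5, H3K27ac was higher at 6 of 6 sites at 3 w.p.i. and at 5 of 8 at 24 w.p.i. Evi5 regulates the cell cycle and vesicle traffic, and its introns hold described Gfi1 elements. The strongest early site (chr5:107748001-107749700, 22.8 kb upstream) had 90.1 and 245.5 normalised counts in Daxx-KO against 78.4 and 64.0 in WT (1.23). The strongest late site lay beside it (chr5:107749101-107750400, 23.7 kb upstream) with 730 and 1088 in Daxx-KO against 429 and 514 in WT, 1.93-fold. The groups were separate at both, but the first Daxx-KO library was near WT at the early one. Pu.1 was higher at 3 of 3 sites over Evi5 at 3 w.p.i. and at 2 of 3 at 24 w.p.i. The site at 20.5 kb upstream had 92.2 and 94.0 normalised counts in Daxx-KO against 20.9 and 19.2 in WT at 3 w.p.i. (2.16). Further out, 3 late H3K27ac sites were lower, for example that at 40.2 kb upstream with 5.99 and 21.96 against 69.3 and 41.1.

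Between Gfi1 and Evi5 all 4 late Pu.1 sites were higher. The strongest, whose sequence is the first printed above, had 64.1 and 196 normalised counts in Daxx-KO against 2.88 and 18.95 in WT (chr5:107734651-107735250, 3.46). An overlapping Pu.1 site was higher at 3 w.p.i. too, with 54.4 and 63.2 against 26.1 and 25.6 (1.16). The second printed site, 2.06 kb upstream, had 38.2 and 52.2 normalised counts in Daxx-KO against 0 and 1.05 in WT. None of these groups overlapped. At 16.5 kb upstream the Daxx-KO libraries had 105 and 30.3 normalised counts and both WT libraries 0. Late H3K27ac was higher at 5 of 6 sites of this stretch, while H3K9me3 and H3K27me3 were lower at 2 of 2 sites each. H3K9me3 at 14.1 kb upstream had 11.5 and 20.8 normalised counts in Daxx-KO against 109 and 46.9 in WT (-2.20).

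Downstream of Gfi1, in a stretch without protein-coding genes, H3K27ac was higher at 14 of 16 late sites. The strongest (chr5:107698401-107699700, 26.99 kb downstream of the start) lay over the lincRNA gene 4930428O21Rik, with 880 and 979 normalised counts in Daxx-KO against 426 and 475 in WT, 2.06-fold. Pu.1 was higher at the same place, with 66.1 and 64.8 against 43.2 and 6.32 (1.37). CUT&Tag carries no strand, so signal of overlapping genes on opposite strands cannot be told apart. H3.3 had 4 higher and 5 lower late sites in this stretch. Its strongest higher site (chr5:107685051-107686150) had 88.3 and 183 normalised counts in Daxx-KO against 43.4 and 5.64 in WT, and an overlapping site was higher at 3 w.p.i. with 127 and 31.7 against 20.3 and 5.24. H3K27me3 at 19.4 kb downstream was near 0 in Daxx-KO at 24 w.p.i., with 1.60 and 0 against 37.3 and 50.0 (-4.63).

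At the edges of the window the last members and the first sites beyond them were of either direction. The outermost downstream member, H3.3 at 24 w.p.i., began 1.49 kb inside and had a log2 ratio of 3.42, and the first site outside, H3K27ac at 24 w.p.i., ended 1.06 kb outside with -3.09. Upstream, the member that crossed the edge had 2.85 and the site 0.365 kb outside 2.37, both H3K27ac at 24 w.p.i. For Gfi1b, the downstream member that crossed the edge, Pu.1 at 3 w.p.i., had 1.53 and the site 0.55 kb outside, H3K27me3 at 24 w.p.i., -0.91. Upstream of Gfi1b the member 0.732 kb inside, H3.3 at 24 w.p.i., had -3.99 and the site 0.719 kb outside, Pu.1 at 3 w.p.i., -1.99.

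Loss of Pu.1 in addition to Daxx was measured at 8 w.p.i. for H3K27me3, and at Gfi1 it went with a spread of libraries rather than with separate groups. Over the 5′ part of the gene (chr5:107723351-107725700) the DKO libraries had 1545, 304 and 24.0 normalised counts and the WT libraries 304, 270 and 190 (log2 ratio 1.29). Over the start (chr5:107726001-107726800) DKO had 226, 41.9 and 5.45 and WT 44.6, 35.3 and 12.3 (1.54). Replicate 1 was the highest of all 6 libraries and replicate 3 the lowest at both sites. Without DKO replicate 1 the log2 ratios were -0.63 and -0.36, and without replicate 3 they were 1.86 and 2.09, so the direction rested on replicate 1. Replicate 3 was the lowest DKO library at 12 of the 15 sites at the 2 loci and at 28.4% of all sites in this comparison. WT replicate 3 was likewise the lowest WT library at 12 of the 15 and at 39.5% of all sites. Neighbouring sites of the same libraries are not separate observations.

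**Figure D4:**
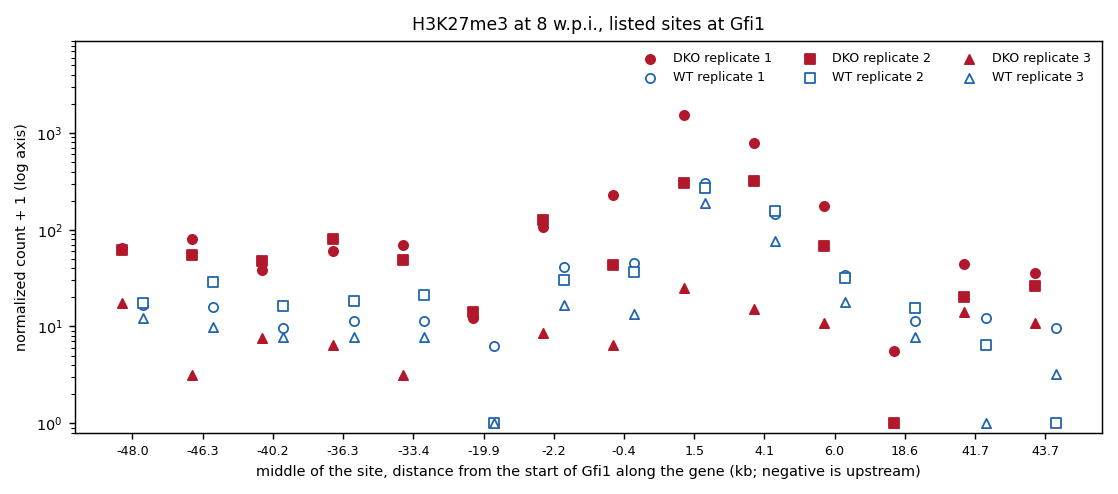
H3K27me3 at 8 w.p.i. in DKO against WT at Gfi1: normalised counts (log axis, 1 added) of each of 3 DKO (filled red) and 3 WT (open blue) libraries at the 14 listed sites, ordered by distance from the gene start in kb. DKO replicate 3 (red triangles) was at 24.0 over the 5′ part of the gene while replicate 1 reached 1545.

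Away from the start the DKO and WT libraries were separate at 5 H3K27me3 sites. At 47.96 kb upstream, over Evi5, DKO had 63.4, 61.1 and 16.3 normalised counts and WT 15.7, 16.3 and 11.2 (1.64). At 43.7 kb downstream DKO had 35.1, 25.3 and 9.81 and WT 8.75, 0 and 2.24 (2.39). The third library was again the lowest of DKO at both. The only lower site, 18.6 kb downstream, had 4.53, 0 and 0 against 10.5, 14.5 and 6.71 (-2.20).

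Against Daxx-KO, DKO was lower at 5 of 6 H3K27me3 sites of Gfi1. Within the gene (chr5:107720501-107721100) the DKO libraries had 103, 17.1 and 8.68 normalised counts and the Daxx-KO libraries 101, 96.7 and 87.5 (-1.13), so the groups overlapped through 1 DKO library. At 18.8 kb downstream they were separate, with 11.3, 10.1 and 0 against 32.1, 23.9 and 49.4 (-2.15). At 22.7 kb downstream DKO had 3.77, 6.03 and 0 and Daxx-KO 16.5, 25.0 and 23.7 (-2.41). A Daxx-KO against WT comparison of H3K27me3 at 8 w.p.i. was not used, because its controls were H3K9me3 libraries.

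The Gfi1b start was the reverse of the Gfi1 start for both marks of lysine 27. H3K27me3 at 24 w.p.i. (chr2:28620251-28622300) had 783 and 853 normalised counts in Daxx-KO against 451 and 593 in WT, 1.57-fold. H3K27ac at 24 w.p.i. (chr2:28621051-28621900) had 62.2 and 80.5 in Daxx-KO against 144 and 149 in WT, a log2 ratio of -1.03. At 3 w.p.i. H3K27ac was already lower, with 6.78 and 3.40 normalised counts in Daxx-KO against 16.1 and 27.6 in WT (-1.91). The groups were separate at all 3 sites. H3.3 at 3 w.p.i. was slightly higher over the start, with 68.7 and 89.2 against 39.3 and 65.5 (0.58). Pu.1 at 24 w.p.i. was higher just upstream (chr2:28622701-28623850), with 204 and 73.1 normalised counts in Daxx-KO against 37.4 and 27.4 in WT (2.07).

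Another annotated start of Gfi1b lies 6.58 kb along the gene, and there H3.3 had opposite directions at the 2 times. H3.3 at 3 w.p.i. (chr2:28614101-28614900) had 47.4 and 67.1 normalised counts in Daxx-KO against 16.8 and 0 in WT (2.63). At 24 w.p.i. (chr2:28614001-28615800) it had 24.3 and 6.79 in Daxx-KO against 132 and 110.9 in WT (-2.89). The groups were separate at both times, in opposite order. Pu.1 at 24 w.p.i. was lower here as well, with 14.3 and 14.6 against 141 and 40 (-2.56), while H3K27me3 was higher, with 515 and 615 against 262 and 237 (1.18), as was H3K9me3, with 24.2 and 45.9 against 14.0 and 0 (2.17). A further H3.3 site towards the start (chr2:28616001-28617150) was lower too, with 19.9 and 4.53 against 101 and 56.4 (-2.59).

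**Figure D5:**
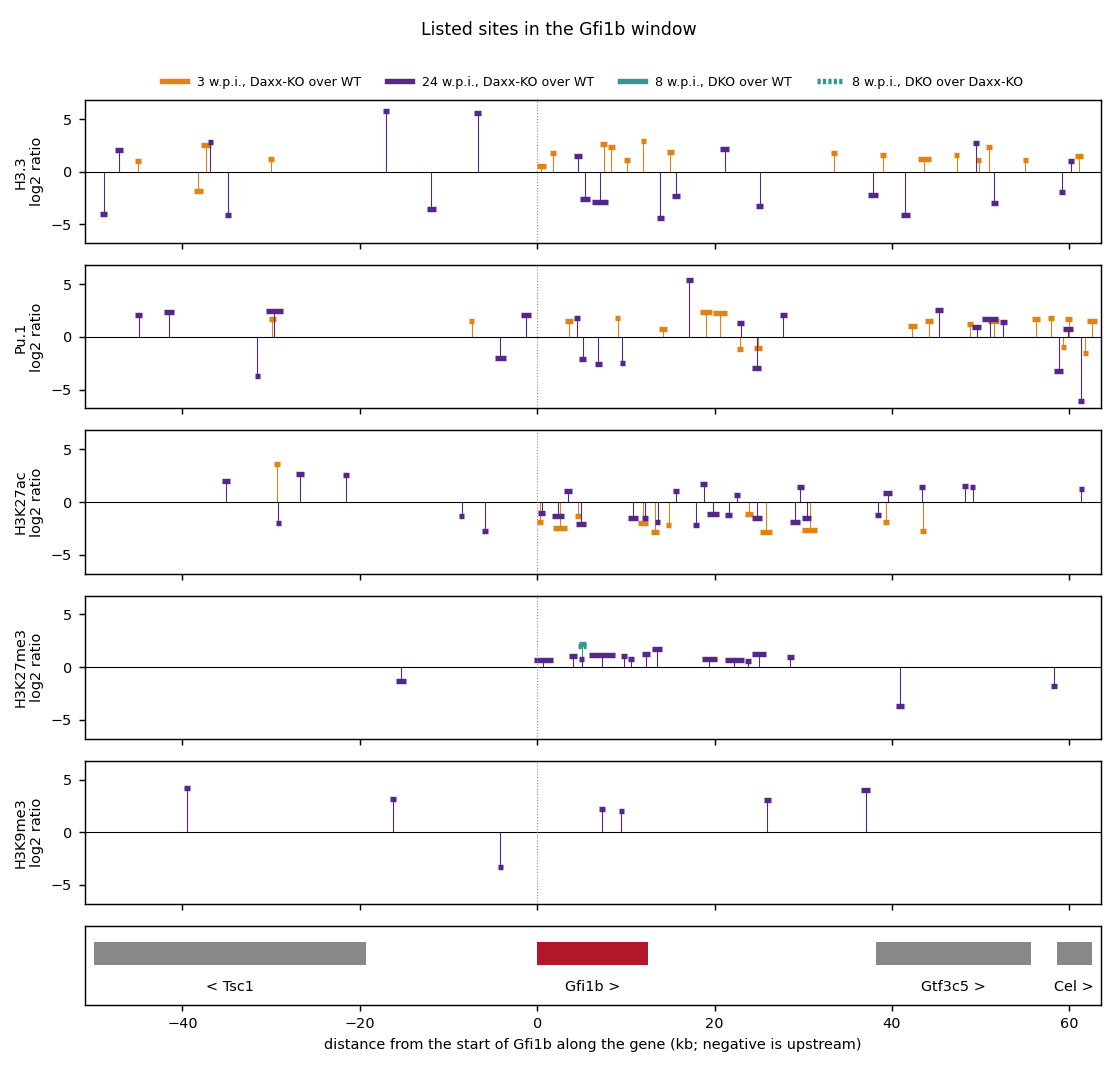
Listed sites along the Gfi1b window by antibody, drawn as for Gfi1, with genes of the window below. H3K27me3 at 24 w.p.i. was higher at all 13 sites from the Gfi1b start to the space before Gtf3c5 and lower at the 3 other sites.

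Over Gfi1b and its promoter H3K27me3 at 24 w.p.i. was higher at 7 of 7 sites, H3K27ac lower at 4 of 4 sites at 3 w.p.i. and at 5 of 6 at 24 w.p.i., and H3.3 at 3 w.p.i. higher at 6 of 6. In an intron H3K27ac at 3 w.p.i. (chr2:28618601-28620200) had 9.69 and 9.34 normalised counts in Daxx-KO against 55.9 and 55.2 in WT, 5.83-fold lower. At 24 w.p.i. an overlapping site had 85.4 and 86.4 in Daxx-KO against 317 and 110.0 in WT (-1.30). The 2 WT libraries of 24 w.p.i. differed from each other by more than the second did from Daxx-KO. The single late H3K27ac site of the gene with the other direction adjoined it (chr2:28618101-28619000), with 149.9 and 151 against 89.4 and 57.8 (1.02). Pu.1 over this part, the last sequence printed above for a site, was higher at 3 w.p.i. with 63.0 and 68.1 against 25.6 and 19.2 (1.51).

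The stretch of Gfi1b listed in the most comparisons was 4.86 kb downstream of the start (chr2:28616451-28617800), with 7 comparisons. Late H3K27ac had 41.2 and 42.4 normalised counts in Daxx-KO against 280 and 94.1 in WT (-2.14). Pu.1 at 24 w.p.i. was lower in the part away from the start, with 23.2 and 19.9 against 83.5 and 109 (-2.11), and higher in the adjoining 600 bp, with 42.3 and 148 against 35.98 and 18.95 (1.76). H3.3 at 24 w.p.i. was split at the same place, lower on the first side and higher on the second, with 153 and 70.2 against 39.7 and 38.5 (1.49). H3K27me3 was higher at 2 sites here at 24 w.p.i., and it was also the only place at Gfi1b listed for DKO. DKO had 9.06, 12.2 and 42.5 normalised counts and WT 0, 0 and 11.2 (2.24), with an overlap of the groups. Against Daxx-KO, the DKO libraries had 11.3, 14.1 and 50.9 and the Daxx-KO libraries 4.94, 8.69 and 2.63 (2.04). At this site replicate 3 was the highest DKO library, unlike at Gfi1.

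Between Gfi1b and Gtf3c5, where Gfi1b elements have been described, H3K27me3 was higher at 6 of 6 late sites and H3K27ac lower at 5 of 5 early and 7 of 11 late sites. The strongest H3K27me3 site of the locus (chr2:28598701-28600800, 22.2 kb downstream) had 870.3 and 797 normalised counts in Daxx-KO against 460.3 and 578 in WT, 1.61-fold. The site nearest the gene (chr2:28607951-28609050) had 84.6 and 92.0 in Daxx-KO against 17.7 and 32.8 in WT, 3.49-fold. Both pairs of libraries were separate. H3K27ac at 3 w.p.i. was lower at the strongest acetylated site (chr2:28597701-28598550), with 93.0 and 27.2 normalised counts in Daxx-KO against 123 and 141 in WT (-1.12), and the second Daxx-KO library was the further from WT.

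At 24.8 kb downstream 6 comparisons met (chr2:28596501-28597800), and all but H3K27me3 were lower in Daxx-KO. Pu.1 at 3 w.p.i. had 40.96 and 34.1 normalised counts in Daxx-KO against 71.6 and 83.1 in WT (-1.02), and at 24 w.p.i. 3.41 and 23.0 against 158 and 63.2 (-2.98). Late H3K27ac had 56.2 and 51.2 against 211 and 94.9 (-1.49), and H3.3 9.94 and 3.40 against 50.7 and 89.3 (-3.21). H3K27me3 had 341 and 268 against 106 and 144 (1.27). No library of one group fell within the other for any of these. Next to it, at 20.6 kb and 19.1 kb from the start, Pu.1 at 3 w.p.i. went the other way, with 195 and 112 normalised counts in Daxx-KO against 43.9 and 19.2 in WT at chr2:28600551-28602150 (2.25), and 175 and 110.2 against 20.4 and 31.96 at chr2:28602251-28603600 (2.40). H3K27ac at 24 w.p.i. was lower where these sites adjoin, with 124 and 114 against 302 and 225 (chr2:28601501-28602850, -1.14). Over the rest of the second site it was higher, with 34.5 and 77.6 against 6.70 and 26.1 (chr2:28602851-28603600, 1.71).

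Upstream of Gfi1b, before Tsc1, 11 sites were listed, 5 higher and 6 lower. H3.3 at 24 w.p.i. was near 0 in WT at 6.69 kb upstream, with 117 and 65.7 normalised counts against 0 and 1.88 in WT, but at 11.9 kb upstream both Daxx-KO libraries were below the 51.7 and 109 of WT (-3.52). Pu.1 and H3K9me3 were both lower at 24 w.p.i. at about 4 kb upstream (chr2:28625551-28626700 for Pu.1), with 13.6 and 31.3 against 94.99 and 88.4 for Pu.1 and 0 and 6.25 against 48.2 and 31.9 for H3K9me3. H3K9me3 was otherwise higher in the window, with its highest counts between the gene and Gtf3c5, where it had 79.1 and 41.7 normalised counts in Daxx-KO against 12.4 and 0 in WT (chr2:28595601-28596450, 3.09). These are low counts, and each group of H3K9me3 libraries was separate at all 7 sites.

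The outer parts of the Gfi1b window belong to other genes, and only 62 of its 145 sites had a Gfi1b start as their nearest protein-coding start, against 108 of 118 at Gfi1. Over Cel, a digestive lipase, and Gtf3c5, a subunit of a factor for RNA polymerase III, H3.3 at 3 w.p.i. was higher at 7 of 7 sites and Pu.1 at 8 of 10. H3K27ac was lower at 2 of 2 sites there at 3 w.p.i. and higher at 5 of 6 at 24 w.p.i., and H3K27me3 was lower at both late sites. Over Tsc1, an inhibitor of mTOR signalling, Pu.1 at 24 w.p.i. had its strongest site of the locus (chr2:28650651-28652550, 29.6 kb upstream), with 230.4 and 145 normalised counts in Daxx-KO against 28.8 and 37.9 in WT (2.46). An overlapping Pu.1 site was higher at 3 w.p.i. with 62.2 and 83.5 against 27.7 and 15.98 (1.69), and neither pair of groups overlapped.

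Sites of 3 or more comparisons overlapped in 26 stretches of Gfi1 and 31 of Gfi1b. The stretch with the most, 9 comparisons, was the Gfi1 start (chr5:107722601-107727450), and 8 met within the gene (chr5:107719651-107722250). Where sites of the same antibody at 3 and 24 w.p.i. overlapped, the direction was the same in all 3 H3.3 pairs and both Pu.1 pairs of Gfi1. It was the same in 7 H3K27ac pairs of Gfi1 and opposite in 3. At Gfi1b the direction was the same in 2 H3.3, 7 Pu.1 and 8 H3K27ac pairs and opposite in 4, 3 and 5 pairs. The overlap of a pair ranged from 50 to 1250 bp, so some pairs shared little DNA. The WT and Daxx-KO libraries of the 2 times are different mice, so these pairs compare separate experiments.

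Short words for blood factors were counted in the central 300 bp of the sites, on both strands. The word AGATAA, which Gata1 and Gata2 bind, was under 10 of 34 H3K27ac sites of Gfi1 at 24 w.p.i. (29.4%), and 13.1% of all sites of that table held it. The word TGTGGT, which Runx1 binds, was under 13 of 34 (38.2%) and 23.6% of all. Under the 16 late H3K27me3 sites of Gfi1b AGATAA was under 5, and under 12.1% of all sites of that table. AAATCAC, a longer word of Gfi1 and Gfi1b, was under 2 of the 34 H3K27ac sites of Gfi1 and 3.39% of all. The Pu.1 word GAGGAAG was also under 2 of the 34 (5.88%), and under 12.4% of all. Other antibodies differed, with AGATAA under 0 of 13 late H3.3 sites of Gfi1 (14.8% of all) and 0 of 6 late H3K27me3 sites (12.1% of all). These are matches of letters and carry no test.

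The partners of Gfi1 and Gfi1b were counted in the same way. A site within the windows of neighbouring genes of a list, such as Elane and Prtn3 among the neutrophil genes described after them, was counted for each, so the sums hold some sites more than once. H3K27me3 at 24 w.p.i. was lower more often than higher at all 5 genes of the co-repressor list (Kdm1a, Rcor1, Hdac1, Hdac2 and Hmg20b), with 45 lower and 9 higher sites in all (58.8% of all sites of the table were lower). It was lower more often at 7 of 9 upstream regulators, among them Spi1 with 12 lower and 0 higher sites, and higher more often at Gata2, the Gata factor of stem cells, with 21 higher and 8 lower. Gfi1, with 6 lower, had the direction of these 7 regulators and of most sites of the table. Gfi1b, with 13 higher and 3 lower, had that of Gata2, the only upstream regulator with more higher sites. Gata1 had no site in this table, which leaves out X and Y. Among 12 known targets of repression, such as Csf1, Csf1r and Hoxa9, 5 had more higher and 7 more lower sites, with 83 higher and 166 lower in all. In DKO against WT at 8 w.p.i. H3K27me3 was higher more often at 9 of these 12, with 74 higher and 8 lower sites (56.1% of all were higher). This was not particular to the targets. The co-repressors had 7 higher and 0 lower sites there, the upstream regulators 28 and 3. The neutrophil genes had 34 and 6, and the erythroid and megakaryocyte genes described below 45 and 1. Windows of all protein-coding genes held a mean of 3.21 higher and 1.59 lower. At 3 w.p.i. H3.3 was higher more often at 4 of 5 co-repressors, 8 of 9 upstream regulators and 9 of 12 targets. Of all H3.3 sites then, 59.4% were higher, and windows of all protein-coding genes held a median of 7 higher and 3 lower. This direction was thus the usual one near genes.

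Genes of the lineages that depend on each factor gave these counts, and their part in the values at Gfi1 and Gfi1b was not tested. H3K27ac at 24 w.p.i. was higher more often at all 11 neutrophil genes, with 238 higher and 85 lower sites (73.7% higher, against 42.5% of all). At 3 w.p.i. 4 of them had more higher and 5 more lower H3K27ac sites, with 62 higher and 59 lower in all (51.2% higher, against 41.5% of all). Windows of all protein-coding genes held a median of 2 higher and 5 lower H3K27ac sites at that time. Elane, neutrophil elastase, had 32 higher and 9 lower H3K27ac sites at 24 w.p.i., and 7 and 11 at 3 w.p.i. Ly6g, a neutrophil surface protein, had 21 higher and 3 lower at 24 w.p.i., and 4 and 4 at 3 w.p.i. Pu.1 at 24 w.p.i. was lower more often at 10 of these 11 (51.8% of all sites were lower). H3K27ac at 3 w.p.i. was lower more often at 10 of 11 erythroid and megakaryocyte genes, with 80 lower and 31 higher sites (58.5% of all were lower), and higher more often only at Pf4, a platelet chemokine, with 6 and 4. At 24 w.p.i. the same list had 4 genes with more higher and 6 with more lower H3K27ac sites. H3K27me3 at 24 w.p.i. was lower more often at 7 of these 11 genes, with 97 lower and 31 higher sites (58.8% of all were lower). It was higher more often at Klf1, with 9 higher and 5 lower sites, and at Epor, with 14 and 12. Hbb-bs and Gata1 had no site. Gfi1b itself had 13 higher and 3 lower. At the neutrophil genes H3K27me3 was lower more often at 8 of 11, with 104 lower and 42 higher sites.

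By the log2 ratio of higher to lower sites, with 1 added to each, over the 14 comparisons, the genes most like Gfi1 among 21508 were Mylip (Pearson's r 0.88), Hoxa7 (0.84) and Ints3 (0.83). Those most like Gfi1b were Trp53bp1 (0.97), Arl5c (0.95) and Gemin4 (0.94). Gfi1 and Gfi1b themselves had an r of -0.10. The 14 points of each r share libraries and mice, and the r is a description of counts of sites only.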

How the data were processed

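CUT&Tag reads of HSPCs were mapped by the authors to mm10, and sites that differed between 2 groups were called by them with diffReps 1.55.6 (600-bp windows, 50-bp steps, fragments taken as 100 bp, window p cutoff 0.0001), per the file headers. The submitters' processing notes also name CASAVA 1.8.4, cutadapt 1.13, STAR 2.5.3 and bedtools, without the role of each. The deposited tables list such sites with normalised counts for each library, which the authors made by dividing reads by 1 constant per library. Multiplying by this constant gave whole reads for 98.6% to 100% of values, within 0.1 read. The authors' fold changes, p-values and adjusted p-values in the same tables were not used.

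Of 62 libraries, 54 were in the 14 tables used. 1 table was left out because its controls belonged to another antibody. The tables of 24 w.p.i. hold no X or Y. Sites were assigned to Gfi1 or Gfi1b by overlap of at least 1 bp with the gene and 50 kb each side (GENCODE M21). Direction was taken from the group means, and log2 ratios had a pseudocount of 1. No overlap means that every library of one group exceeded every library of the other. Members were chosen by the contrasts themselves, so no test was run and no block was fitted.

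Named were sites within 1 kb of an annotated start, the site with the highest mean in each comparison and direction, and stretches shared by at least 3 comparisons, 180 sites in all. Others named for an example (such as far upstream over Evi5) were chosen after their values were seen. The members, gene lists and words were chosen with earlier results of these data known. Scripts used Python 3.11.15, numpy 2.4.6, pandas 2.3.3, scipy 1.17.1, pysam 0.24.0 and matplotlib 3.10.9 and were tested on simulated data. Alternatives were a window of 10 kb, the nearest start, separate groups only, a mean of at least 20, an absolute log2 ratio of at least 1, merging within 1 kb, pseudocounts of 0.5 and 5, and leaving out each library.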

Additional observations from a re-analysis of the deposited data

Results flagged for a closer look

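At 15 places the sites of one antibody overlapped at 3 and 24 w.p.i. while every library of Daxx-KO lay above WT at one time and below it at the other. The sites of a pair shared 50 to 800 bp, and each site was at least 600 bp long. The 2 ratios thus come in part, and at short overlaps mostly, from neighbouring DNA. The difference between the times was not tested. The log2 ratios are given for 3 and then 24 w.p.i., and sites are named by the start of the earlier one.

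H3.3 at Gfi1b was higher early and lower late at 4 places. The ratios were 2.33 and -2.98 at chr2:28570701 over Gtf3c5, and 1.87 and -2.33 at chr2:28606601 downstream of the gene. Within the gene they were 2.33 and -2.89 at chr2:28613201 and 2.63 and -2.89 at chr2:28614101, which share the late site. The overlaps were 150, 150, 50 and 800 bp in this order. Early WT replicate 2, the shallow library, had 0 normalised counts at 3 of these 4 early sites.

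Pu.1 at Gfi1b gave -0.93 and 0.76 at chr2:28562351 over Cel, -1.11 and 1.33 at chr2:28598751, and 1.81 and -2.52 at chr2:28612601 within the gene. The overlaps were 350, 650 and 100 bp.

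H3K27ac at Gfi1 gave 2.70 and -1.49 at chr5:107702851 downstream of the gene. Near the 3′ end it gave 1.06 and -0.91 at chr5:107717651, where a second late site was higher, and -2.61 and 1.26 at chr5:107719251. The overlaps were 300, 100 and 300 bp.

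H3K27ac at Gfi1b was lower early and higher late at 4 places, with -2.72 and 1.42 at chr2:28578151 and -1.93 and 0.82 at chr2:28582351 over Gtf3c5, -2.66 and 1.42 at chr2:28590451, and -2.43 and 1.02 at chr2:28618601 in the first part of the gene. The last 2 early sites also overlapped a late site that was lower. The overlaps at these 4 were 550, 600, 200 and 400 bp. Over Tsc1 H3K27ac gave 3.65 and -1.95 at chr2:28651001, with 450 bp shared.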

How the results depend on the processing

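No paired analysis was possible because no result came from a test, and same-numbered libraries of 2 genotypes are different mice. Of 207 values of shares of higher sites under all alternatives, 189 kept their side of 50% and their size. Within 10 kb of the gene the share was 100% for H3.3 at Gfi1 at 3 w.p.i. (3 of 3) and 24 w.p.i. (2 of 2). At Gfi1b it was 100% for early H3.3 (7 of 7), early Pu.1 (6 of 6) and late H3K27me3 (10 of 10). It was 0% for early H3K27ac at Gfi1b (0 of 6) and H3K27me3 of DKO against Daxx-KO at Gfi1 (0 of 3). By nearest start it was 100% for early H3.3 at Gfi1 (7 of 7) and Gfi1b (7 of 7), early Pu.1 (6 of 6) and late H3K27me3 (10 of 10) at Gfi1b, 0% for early H3K27ac (0 of 6) and 21.4% for late H3K27ac (3 of 14) at Gfi1b. With a mean of at least 20 it was 100% for early H3K27ac (6 of 6) and H3K27me3 of DKO against WT (12 of 12) at Gfi1 and 0% for early H3K27ac at Gfi1b (0 of 9). The side of 50% turned for late Pu.1 at Gfi1b by nearest start (42.9% against 61.9%) and for late H3K27ac at Gfi1b after merging (54.5% against 44.8%). The H3K27me3 ratios of DKO against WT over the Gfi1 start turned to -0.63 and -0.36 without DKO replicate 1, and were 1.86 and 2.09 without DKO replicate 3. The cause was not tested. Of the log2 ratios of single sites, 1067 kept direction and size, 47 moved and 2 turned. Groups of 2 limit all values.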
